A study of Mus musculus with 2 samples.

Results

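The terminal red cell remodelling genes are 10 mouse genes that act late in red cell formation or mark it: Bnip3l, Ulk1, Gabarapl2, Ube2o, Trim10, Xpo7, Foxo3, Tspo2, Tmcc2 and Car2. They were chosen by name for what they are known to do, with earlier results of these data known. Each was found by matching its Ensembl gene identifier to its symbol. All 10 were present among the 43346 Ensembl gene rows of both libraries, of which 42462 could be matched to a symbol. The libraries were made from livers of B6NCrl mouse embryos at embryonic day 11.5, with no treatment or genetic change named in the labels. Each of the 2 libraries stands for 1 biological replicate, and in each case the embryos pooled were of both sexes. Replicate 1 came from 109 embryos per its label, and the label of replicate 2 gives no number. Each library was made by a SmartSeq protocol, which copies and amplifies polyadenylated RNA, from 1 cell-equivalent of RNA of the pooled tissue. The sample descriptions call both libraries total RNA-seq, and this difference in wording was not resolved here. With 1 group and a pair of libraries, levels are given per library or as mean ± SD (n = 2), and no test of a difference can be made.

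A red cell precursor shrinks, condenses its nucleus and, in mammals, expels it, and the young red cell then removes its mitochondria, ribosomes and other organelles. Mitochondria are removed by mitophagy, in which a receptor on the mitochondrion binds small ubiquitin-like proteins on the autophagic membrane. Soluble proteins are tagged by ubiquitin ligases and degraded by the proteasome, and proteins leave the condensing nucleus through export receptors. Liver at this stage holds definitive red cell precursors that have only begun to mature, beside hepatoblasts, and it receives primitive red cells with the circulating blood.

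The libraries held 33289699 (replicate 1) and 32607453 (replicate 2) estimated reads. Counting allows up to 3 reads of a gene with none in a library, and this limit covers counting error only, since PCR copies are not independent molecules. The 5 erythroid markers other than globins that are reported here, Alas2, Epor, Gata1, Slc4a1 and Klf1, all reached a TPM (a relative abundance scaled for transcript length) of 1 in both libraries, with sums of 739 and 560 TPM. All 6 hepatoblast markers were also detected in both, with sums of 11136 and 9737 TPM. Of the other cell types, the macrophage, mesenchymal and heart marker sums moved most between the libraries. The 5 macrophage markers summed to 412 and 163 TPM with 3 detected in both and Cd68 at 0 in both. The 3 mesenchymal markers summed to 139 and 353 TPM, the 3 megakaryocyte markers to 916 and 1160, and the 4 endothelial markers to 95.7 and 98. The 4 heart markers summed to 6.62 and 202 TPM, with 1 detected in both. The part of these shifts in the differences below was not tested. In pooled tissue, fewer cells of a type and less RNA per cell cannot be told apart, and the cell type that held a transcript was not measured.

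Bnip3l and Gabarapl2, among the best measured genes, carried most of their TPM in short annotated transcripts that encode no protein, and the stretches that set these transcripts apart are printed here because little else separates them from the coding transcripts. Bnip3l-204 is a processed transcript of 354 bases, 333 of them (94.1%) inside exons of coding Bnip3l transcripts. Bnip3l-205 is a processed transcript of 789 bases, with 757 (95.9%) inside those exons. Gabarapl2-203, a transcript annotated with a retained intron, has 749 bases, 657 of them (87.7%) inside exons of coding Gabarapl2 transcripts. The bases of each that lie outside coding exons form 1 stretch at its 5′ end. They lie at chr14:66999705-66999725 (minus strand) for Bnip3l-204, chr14:66989810-66989841 (minus strand) for Bnip3l-205 and chr8:111941068-111941159 (plus strand) for Gabarapl2-203, all in mm10. The sequences below run 5′ to 3′ and come from the GENCODE M21 transcripts. Lower case marks the stretch outside coding exons and capitals mark the next 10 bases, which a coding transcript shares.
Bnip3l-204: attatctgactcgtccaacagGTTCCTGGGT
Bnip3l-205: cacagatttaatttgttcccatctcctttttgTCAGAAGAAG
Gabarapl2-203: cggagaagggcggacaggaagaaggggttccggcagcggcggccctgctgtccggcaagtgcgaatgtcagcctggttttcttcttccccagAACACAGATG
These stretches hold 21, 32 and 92 bases. A read that misses them can also come from a coding transcript, so the division of reads among the transcripts of these genes is uncertain.

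In these livers 7 of the 10 genes reached 1 TPM in each library: Car2, Bnip3l, Gabarapl2, Trim10, Tspo2, Tmcc2 and Foxo3. Xpo7 reached it in replicate 2 alone, and Ube2o and Ulk1 in neither. Among all matched genes 15.2% were detected in both libraries, and among protein-coding genes 27.3%. The median level of the 10 genes on the log2(TPM + 1) scale was 5.71, against 0.01 for protein-coding genes. Since the 10 were chosen with earlier results of these data known, these comparisons are a description only. Their summed TPM was 0.223% of the total in replicate 1 and 0.19% in replicate 2 (mean 0.206% ± 0.0235, SD, n = 2). Car2 alone made 62.4% and 53.5% of that sum. Without Car2 the sum was 0.0838% and 0.0881%.

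**Figure D1:**
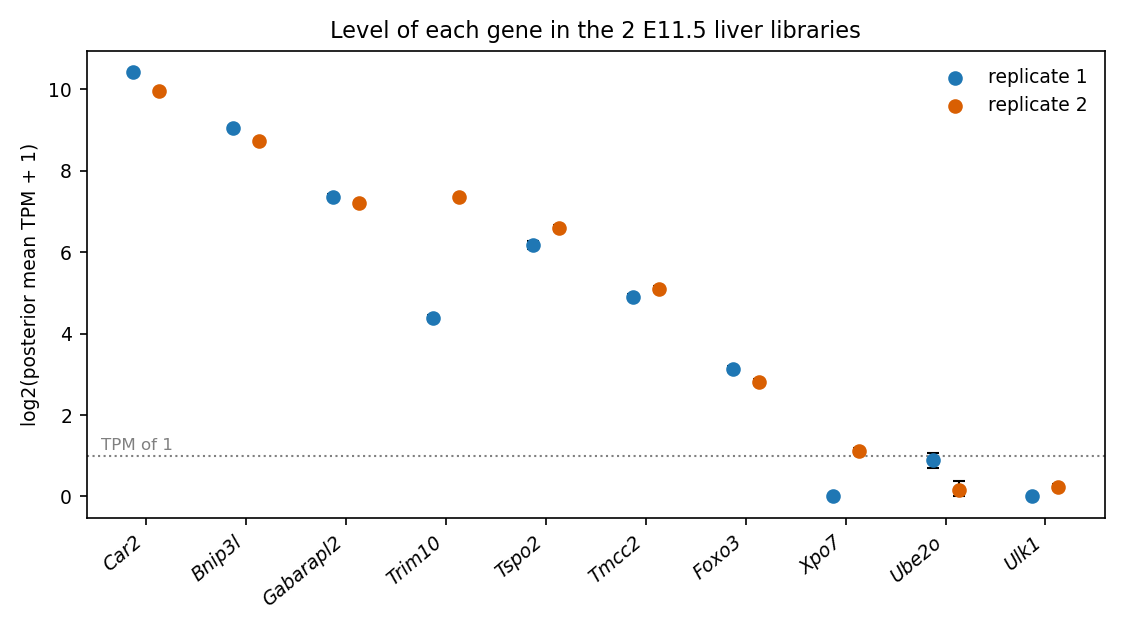
Deposited posterior mean TPM of each of the 10 genes in replicate 1 and replicate 2 on the log2(TPM + 1) scale, with bars for the 95% credibility bounds of each library, mostly smaller than the points, and a dotted line at 1 TPM. Posterior means run from 1365 and 996 for Car2 to 0.01 and 0.18 for Ulk1, and Trim10 shows the widest gap among the genes detected in both libraries.

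Reads of a mitophagy receptor gene and of a gene for a membrane-bound partner were found in both libraries. Bnip3l, also called Nix (ENSMUSG00000022051.11, chromosome 14, 66985239 to 67008877, mm10, minus strand), encodes the outer mitochondrial membrane receptor for mitophagy in young red cells. Its 13905 reads in replicate 1 gave 540 TPM, and its 8691 reads in replicate 2 gave 430 TPM, a mean of 485 ± 77.5 TPM (SD, n = 2). It ranked 295th and 356th among matched genes. Replicate 1 was 1.25 times higher in TPM and 1.57 times higher in its share of reads.

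The level of Bnip3l depended on which transcripts were counted. Bnip3l-205 was assigned 206 and 196 TPM and Bnip3l-204 was assigned 208 and 167, together most of the gene's TPM in each library. The coding Bnip3l-201, of 3238 bases, was assigned 82.7 TPM in replicate 1 and 33.5 in replicate 2. By reads the order differed. Bnip3l-201 held 7672 reads (55.2%) in replicate 1 and 3087 (35.5%) in replicate 2, while Bnip3l-204 held 1567 (11.3%) and 1247 (14.4%). A read counts for more TPM in a shorter transcript, and the effective length was 255 bases for Bnip3l-204 and 3139 for Bnip3l-201. All coding transcripts together gave Bnip3l 82.9 TPM in replicate 1 and 33.5 in replicate 2, a ratio of 2.48. With all reads of the gene placed on its longest coding transcript the values were 195 and 125 TPM.

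Gabarapl2 (ENSMUSG00000031950.7, chromosome 8, 111940703 to 111953612, plus strand) encodes a ubiquitin-like protein of the autophagic membrane, in the family that mitophagy receptors bind. Replicate 1 held 4371 reads of it, or 167 TPM, and replicate 2 held 4009, or 148 TPM (158 ± 13.5, SD, n = 2). The libraries were close on this gene by TPM. Its retained-intron transcript Gabarapl2-203 was assigned 125 and 105 TPM (74.8% and 70.7%), and the coding Gabarapl2-201 was assigned 42.1 and 43.3. The reads were divided more evenly, with 2403 and 2001 on Gabarapl2-203 and 1966 and 2006 on Gabarapl2-201.

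Ulk1, the kinase that starts autophagy (ENSMUSG00000029512.7, chromosome 5, 110784488 to 110810097, minus strand), had no read in replicate 1 and 26 reads in replicate 2, or 0.17 TPM. Its share of reads in replicate 2 was at least 8.85-fold higher than the limit of 3 reads in replicate 1.

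Both ubiquitin genes differed between the libraries. Trim10 (ENSMUSG00000073400.6, chromosome 17, 36869574 to 36877833, plus strand) encodes a RING finger protein made mainly in red cell precursors. Only 1276 reads fell on it in replicate 1, at 20.1 TPM, against 10537 in replicate 2, at 167 TPM, a mean of 93.6 ± 104 TPM (SD, n = 2). Replicate 2 was 8.31 times higher in TPM and 8.43 times higher in share of reads, and the rank moved from 4851st to 910th. Trim10 has 1 annotated transcript, Trim10-201 of 2245 bases, so no division among transcripts enters this value.

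Beside that difference, other red cell markers did not share 1 direction. Alas2, the red cell enzyme that starts haem synthesis, had 121 and 184 TPM, and Epor, the erythropoietin receptor, 87.5 and 116. Gata1, a central erythroid transcription factor, had 237 and 51.4 TPM, Slc4a1, the anion exchanger, 157 and 107, and Klf1, an activator of adult globin genes, 136 and 102. The summed TPM of these 5 markers in replicate 2 was 0.758 times that in replicate 1, and its part in the difference of Trim10 was not tested.

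Ube2o (ENSMUSG00000020802.8, chromosome 11, 116537740 to 116581447, minus strand) encodes a ubiquitin-conjugating enzyme that also acts as a ligase and clears ribosomal proteins from young red cells. Replicate 1 held 77 reads of it, or 0.75 TPM, and replicate 2 held none. The share in replicate 1 was at least 25.1-fold higher than the limit of 3 reads in replicate 2. All 77 reads were assigned to Ube2o-202, a processed transcript of 3550 bases that lies wholly within coding exons.

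Xpo7 (ENSMUSG00000022100.9, chromosome 14, 70654246 to 70766628, minus strand) encodes a nuclear export receptor that accumulates during late red cell maturation. It had no read in replicate 1 and 524 reads in replicate 2, or 1.19 TPM. The share of reads in replicate 2 was at least 178-fold higher than the limit of 3 reads in replicate 1. Of the 524 reads, 415 were assigned to Xpo7-201 and 109 to Xpo7-202. The deposited table gave Xpo7-201 a length of 15118 bases, while the later annotation gives 4472, and with all 524 reads placed on a transcript of that length the gene would have 4.09 TPM. Dok2, on the opposite strand within the span of Xpo7, had 741 and 1070 reads, and the sources used here do not say whether reads were counted by strand.

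Foxo3 (ENSMUSG00000048756.7, chromosome 10, 42181841 to 42276755, minus strand) encodes a transcription factor that promotes antioxidant genes, mitochondrial clearance and loss of the nucleus in red cell precursors. Its level was 7.76 TPM (1549 reads) in replicate 1 and 6.05 TPM (1199 reads) in replicate 2 (6.9 ± 1.21, SD, n = 2). All its reads were assigned to the coding Foxo3-203.

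Tspo2 (ENSMUSG00000023995.7, chromosome 17, 48447907 to 48451522, minus strand) encodes a membrane protein of red cell precursors related to the mitochondrial translocator protein. Its level was 72.4 TPM from 3143 reads in replicate 1 and 95.2 TPM from 4379 reads in replicate 2 (83.8 ± 16.1, SD, n = 2). Replicate 2 was 1.31 times higher. The coding Tspo2-201 was assigned 33 and 63.4 TPM. Tspo2-202, a retained-intron transcript of 3146 bases, took most of the reads (69.9% and 63.4%) and less of the TPM (33.7% and 32.6%), the reverse of what the short Bnip3l transcripts showed.

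Tmcc2 (ENSMUSG00000042066.11, chromosome 1, 132356315 to 132391281, minus strand) encodes a transmembrane coiled-coil protein. The gene stood at 29.4 TPM (2864 reads) in replicate 1 and 33 TPM (2593 reads) in replicate 2 (31.2 ± 2.57, SD, n = 2). TPM was 1.12 times higher in replicate 2, while its share of reads was 0.924 of that in replicate 1, so the direction turned with the unit. The coding Tmcc2-206 was assigned 11.7 TPM in replicate 1 (39.8%) and 32.9 in replicate 2 (99.7%).

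Car2 (ENSMUSG00000027562.8, chromosome 3, 14886273 to 14900770, plus strand) encodes carbonic anhydrase II, the main cytosolic enzyme of red cells for interconverting carbon dioxide and bicarbonate. It was the highest of the 10, with 1390 TPM from 68305 reads in replicate 1 and 1015 TPM from 50299 in replicate 2 (1202 ± 265, SD, n = 2). It ranked 98th and 155th among matched genes. The coding Car2-201 took nearly all of it, at 1349 and 1013 TPM.

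By mean TPM the order was Car2, Bnip3l, Gabarapl2, Trim10, Tspo2, Tmcc2, Foxo3, Xpo7, Ube2o and Ulk1. Car2 lay above Bnip3l, and Bnip3l above Gabarapl2, in both libraries by gene TPM. The place of Bnip3l turned with the transcripts counted. Over coding transcripts in replicate 2 it had 33.5 TPM, below Gabarapl2 at 43.3, Tspo2 at 63.4 and Trim10 at 167. With reads placed on the longest coding transcripts in replicate 2 it had 125 TPM, above Gabarapl2 at 115 and below Trim10 at 223 and Tspo2 at 232. By gene TPM, Gabarapl2 lay above Tspo2 in both libraries, while the place of Trim10 beside them was not settled. Trim10 was the lowest of these 3 in replicate 1 and the highest in replicate 2. Trim10 was also below Tmcc2 in replicate 1. Tmcc2 lay above Foxo3 in both libraries. The order of Xpo7, Ube2o and Ulk1 changed between the libraries.

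**Figure D2:**
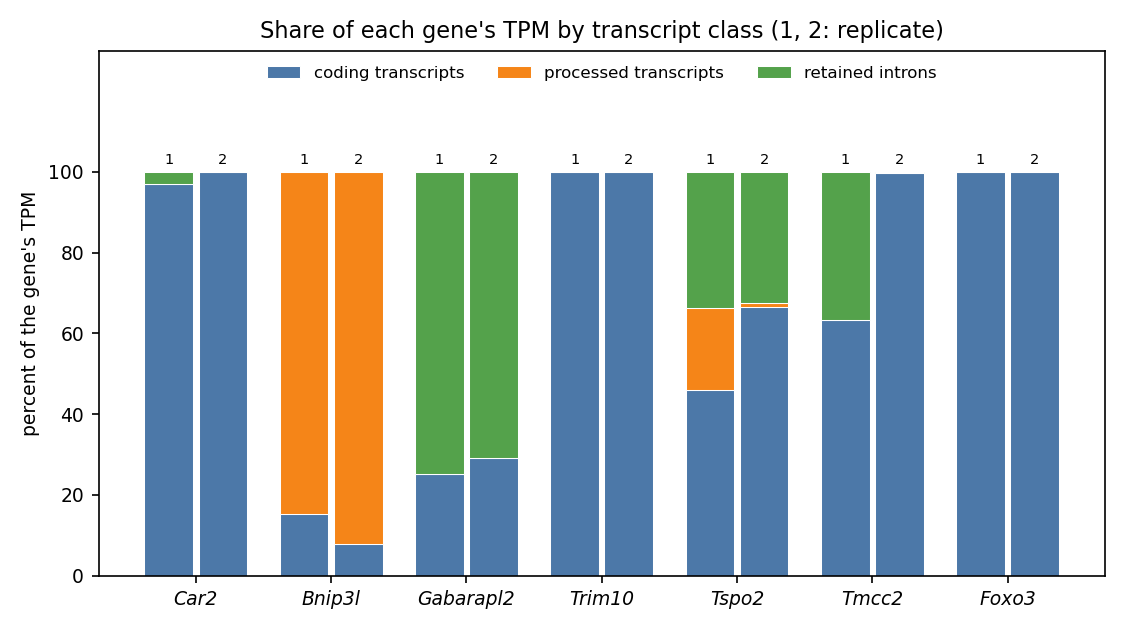
Percent of TPM in coding transcripts, processed transcripts and transcripts with retained introns, as stacked bars for replicates 1 and 2 of the 7 genes detected in both libraries. Coding transcripts hold 15.3% and 7.77% of the TPM of Bnip3l and 25.2% and 29.2% of that of Gabarapl2.

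Coding transcripts held under 50% of TPM in both libraries for 2 of the 5 genes compared, Bnip3l and Gabarapl2. Over all protein-coding genes compared the share was 9.97%. The leading transcript, the one with the highest TPM, was the same in both libraries for 4 of 5 genes that averaged 10 TPM or more and have several transcripts, against 62.4% of all genes. The exception was Bnip3l, led by Bnip3l-204 in replicate 1 and Bnip3l-205 in replicate 2. Counts over so few genes are a description only.

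**Figure D3:**
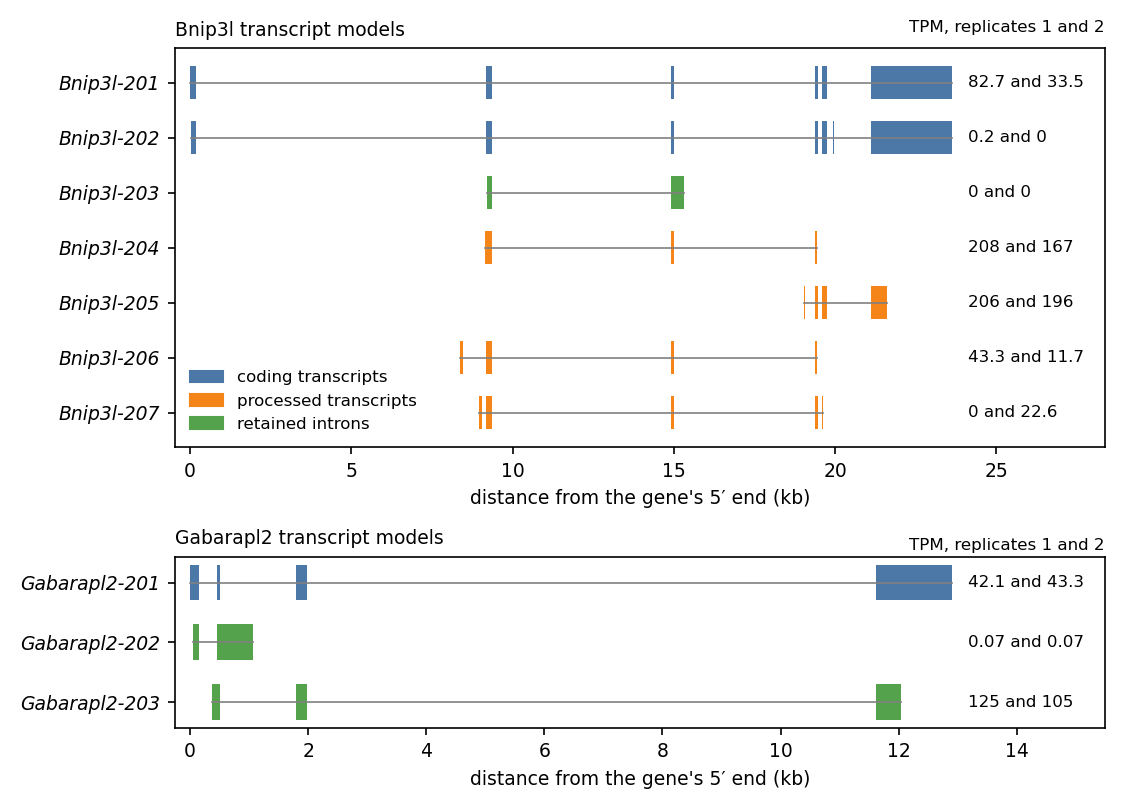
Exons (boxes) of the annotated transcripts of Bnip3l and Gabarapl2 by distance in kb from the 5′ end of the gene, coloured by transcript class, with the TPM of each transcript in replicates 1 and 2 at the right. The non-coding transcripts with the highest TPM, Bnip3l-204, Bnip3l-205 and Gabarapl2-203, overlap exons of the coding transcripts almost throughout.

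The libraries were compared by the log2 of TPM + 1 in replicate 2 less that in replicate 1, after taking away the median of this value over all genes whose mean TPM was 10 or more. Of the 6 listed genes above that mean, 1 was past 2-fold higher in replicate 2 (Trim10, 2.97) and 0 were past 2-fold higher in replicate 1. Among all genes, 25.2% were past 2-fold higher in replicate 2 and 25.8% in replicate 1, and of those averaging 50 TPM or more 29.4% were past it in either direction. The other values were −0.48 for Car2, −0.35 for Bnip3l, −0.20 for Gabarapl2, 0.37 for Tspo2 and 0.14 for Tmcc2. The median of the 6 was −0.03, and their median absolute difference was 0.36, against 1.03 over all genes averaging 10 TPM or more. Of the 6 genes, 5 averaged 50 TPM or more, and this comparison was not matched for level. Before centring, the median log2 ratio was 0.02 over all genes and 0.42 over the spike-in RNAs. Centred on the spike-ins, Tspo2 became −0.03 and Tmcc2 −0.25, while Trim10 stayed higher in replicate 2 at 2.57. The other values moved further from 0, to −0.87 for Car2, −0.74 for Bnip3l and −0.59 for Gabarapl2.

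The deposited 95% credibility bounds did not overlap between the libraries for any of the 10 genes, and 73.7% of all genes with reads in either library were apart in the same way. For Trim10 the bounds were 18.7 to 20.8 and 161 to 167 TPM, and for Gabarapl2, whose libraries were close, 159 to 170 and 140 to 151. The bounds belong to the deposited posterior mean, which can differ from the TPM printed here. They cover how reads were assigned within a library and not the spread between samples. Reads in 1 library alone were found for 3 of the 10 genes, Xpo7, Ube2o and Ulk1, against 33.2% of all genes with reads in either.

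Each gene was also set beside a chosen list of relatives, 33 in all, on the TPM scale. Bnip3l, Trim10, Foxo3, Tmcc2 and Car2 were higher than each of their relatives on that list in both libraries. Family members outside the list were not compared. Bnip3, the closest relative of Bnip3l and also a mitophagy receptor, had 243 and 327 TPM, so that Bnip3l was 1.77 ± 0.642 times Bnip3 (SD, n = 2). That order turned with the transcripts counted. Over coding transcripts alone Bnip3l was 0.344 and 0.104 times Bnip3, and with reads placed on the longest coding transcript 0.618 and 0.315 times.

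In the family of Gabarapl2, Gabarap was the highest at 292 and 352 TPM, and Gabarapl2 was 0.497 ± 0.108 times Gabarap. By gene TPM, Gabarapl2 made 34.5% and 26.1% of the sum of Gabarap, Gabarapl1 and Gabarapl2. Gabarapl1 had 26.2 and 67.5 TPM. Of the related LC3 genes, Map1lc3b had 162 and 75.4 TPM and Map1lc3a 0 and 1.75. Parts of this order turned with the transcripts counted. Over coding transcripts alone Gabarapl2 was 0.175 and 0.146 times Gabarap and 1.61 and 0.642 times Gabarapl1. It was then 0.262 and 0.579 times Map1lc3b, against 1.03 and 1.97 by gene TPM. The kinase relatives of Ulk1 were also under 1 TPM, with Ulk2 at 0 in both libraries, Ulk3 at 0.72 and 0.01 TPM and Ulk4 at 0.05 and 0.

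Trim58, another red cell ligase, had 6.06 TPM in replicate 1 and no read in replicate 2, opposite in direction to Trim10. Of the Trim genes listed beside Trim10, Trim26 had 0 and 21.8 TPM, Trim39 3.02 and 0, and Trim15 0 in both. Ube2o lay far under other ubiquitin-conjugating enzymes. Ube2c, which acts in mitosis, had 580 and 458 TPM, Ube2b 72.1 and 195, and Ube2l6 79.1 and 111. Birc6, a large enzyme that joins both activities as Ube2o does, had 43.2 and 46.1, and Ube2h, which rises in late red cell maturation, 3.95 and 0. Birc6 held 2673 and 8657 reads, and over coding transcripts alone it had 9.53 and 20.1 TPM.

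Xpo1, Xpo4, Xpo5 and Xpo6 were above Xpo7 in both libraries by gene TPM. Over coding transcripts alone Xpo6 had 0.46 TPM in replicate 2, where Xpo7 was 2.59 times as high, so that order turned. Xpo1, the general export receptor, had 33.2 and 36.9 TPM, Xpo4 65.4 and 21.2, Xpo5 11.4 and 32.1, and Xpo6, the exporter of actin, 6.19 and 75.5. Ranbp17, the closest relative of Xpo7, had 0 and 19.6 TPM, so it too had reads in replicate 2 alone. The relatives of Foxo3 were low, with Foxo1 at 0.13 and 1 TPM, Foxo4 at 1.14 and 0 and Foxo6 at 0 in both. Tmcc1 and Tmcc3 were at 0.04 and 0.01 TPM in replicate 1 and at 0 in replicate 2.

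Tspo, the widely expressed relative of Tspo2, had 241 and 112 TPM, and Tspo2 was 0.575 ± 0.389 times Tspo. With reads placed on the longest coding transcripts the ratio was 0.514 in replicate 1 and 1.55 in replicate 2, so the order was not settled. Car2 was 23.1 ± 13 times Car1, the other carbonic anhydrase abundant in red cells, which had 43 and 72.9 TPM. Car14 had 54.5 and 9.12 TPM, Car4 28.1 and 0, Car13 0.02 in both and Car3 0 in both.

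**Figure D4:**
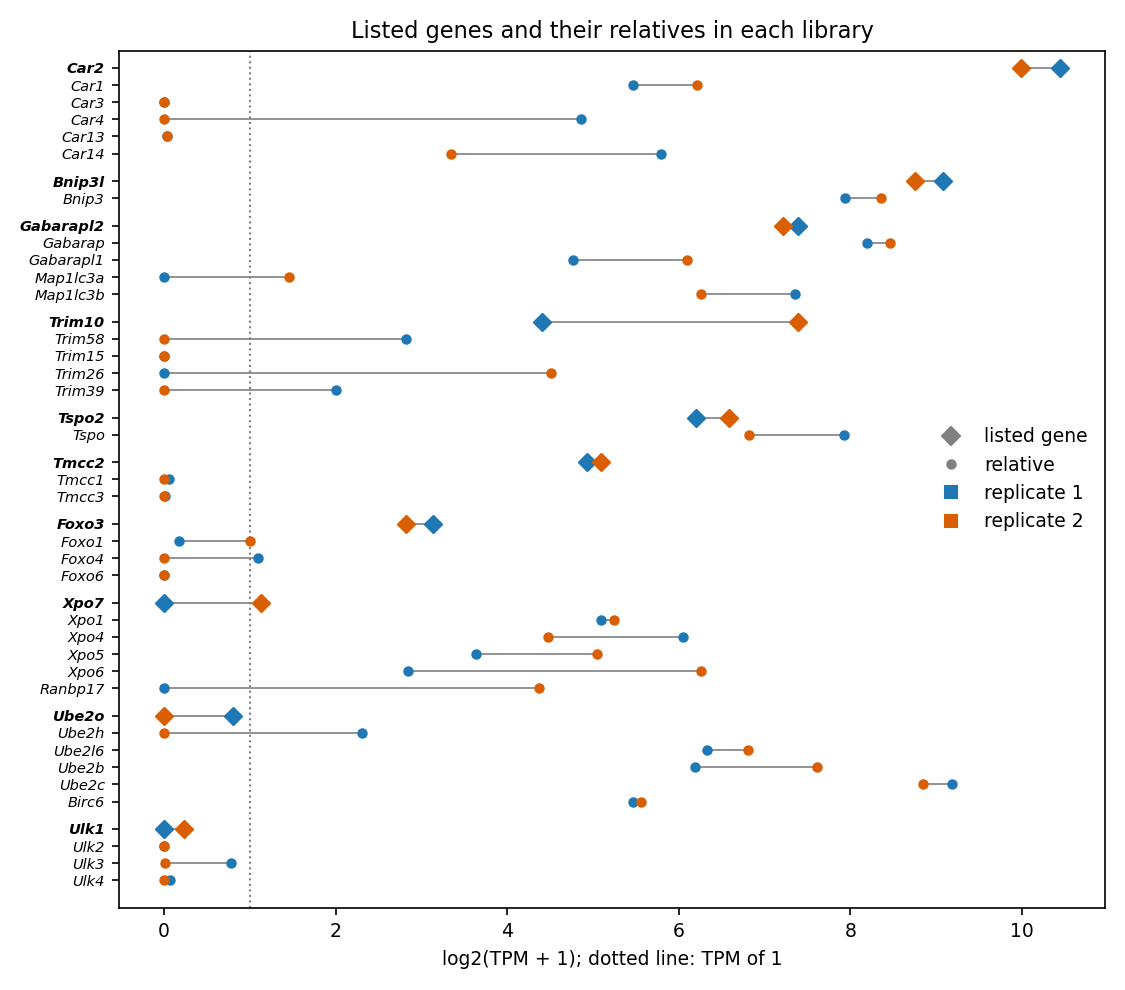
Level of each listed gene (diamonds) and its relatives (circles) in replicates 1 and 2 on the log2(TPM + 1) scale, with a dotted line at 1 TPM. Car2, Bnip3l, Trim10, Tmcc2 and Foxo3 lie above the relatives shown in both libraries, while the other 5 genes do not.

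The wider pathways were described with 153 further genes in 5 lists that share some members, of which 103 (67.3%) were detected in both libraries, 22 in replicate 1 alone, 18 in replicate 2 alone and 10 in neither. Of the 108 averaging 10 TPM or more, 31 were past 2-fold higher in replicate 2 and 30 in replicate 1, and the median difference was 0.01. The shares past 2-fold lie near those of all genes given above. Detected in both libraries were 15.2% of all matched genes and 27.3% of protein-coding genes. Those shares also stand beside the detection counts of each list below. The lists were chosen with earlier results of these data known, so the detection counts are a description only.

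**Figure D5:**
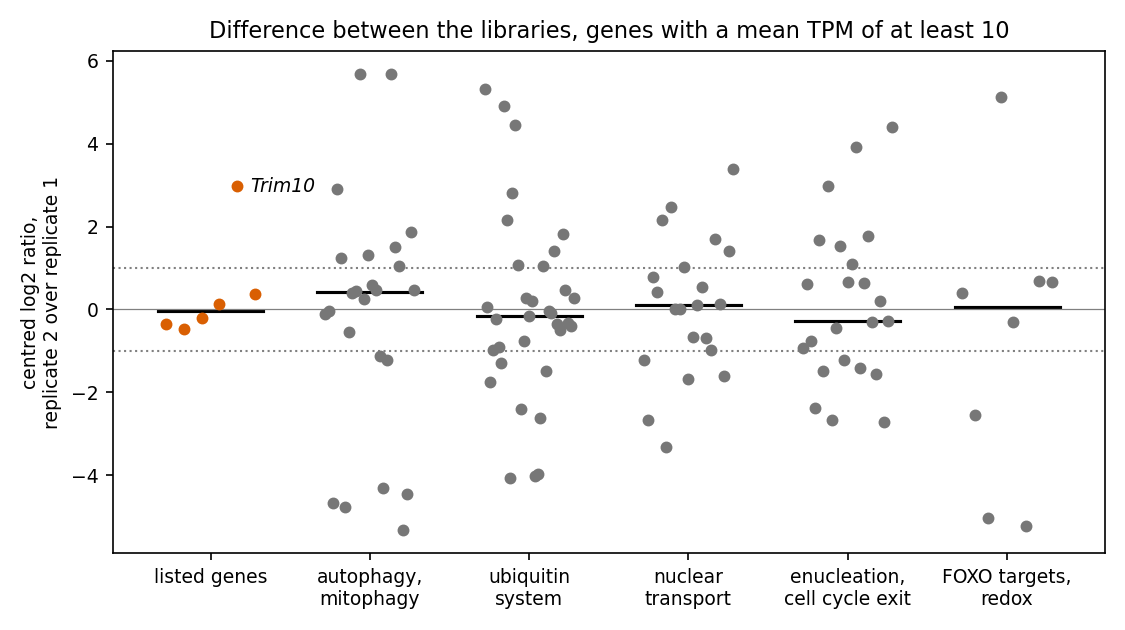
Centred log2 ratio of replicate 2 over replicate 1 for the listed genes and the 5 companion lists, 1 point for each gene averaging 10 TPM or more, with a bar at each list's median and dotted lines at 2-fold. Trim10 lies at 2.97, the other 5 listed genes lie between −0.48 and 0.37, and the list medians lie between −0.27 and 0.43.

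In the autophagy list 18 of 40 genes were detected in both libraries, 12 in replicate 1 alone, 5 in replicate 2 alone and 5 in neither. Becn1, a subunit of the lipid kinase that nucleates the autophagic membrane, had 120 and 82.5 TPM, and Atg4b, the protease that trims LC3 and GABARAP proteins, 81.9 and 81.8. Sqstm1, the cargo adaptor p62, had 50 and 105 TPM, a centred difference of 1.04. Atg14 and Atg4a were at 0 in both libraries. Of 24 genes past a mean TPM of 10, 8 were past 2-fold higher in replicate 2 and 7 in replicate 1.

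Of 40 ubiquitin system genes 32 were detected in both libraries, 9 of 33 were past 2-fold higher in replicate 2 and 8 in replicate 1. Ubb, a ubiquitin gene, had 2021 and 2017 TPM, a level that is uncertain where its repeated units match other genes. Skp1a, a subunit of SCF ligases, had 302 and 638 TPM, while the scaffold Cul1 had 182 and 54.7. Uba1, the main ubiquitin-activating enzyme, had 180 and 64.5 TPM, and Ddb1, an adaptor of CUL4 ligases, 121 and 49.6. Ube2g1 had 31.8 and 116 TPM and Gid8, a subunit of the CTLH ligase, 88.8 and 189, whereas Ranbp9 of the same ligase was at 0 in both.

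Of 29 nuclear transport genes 24 were detected in both libraries and 0 were under 1 TPM in both. Ran, the GTPase that gives transport its direction, had 1117 and 718 TPM, its partner Ranbp1 648 and 709, and the import adaptor Kpna2 375 and 387. Of 21 past a mean TPM of 10, 6 were past 2-fold higher in replicate 2 and 5 in replicate 1. Among those higher in replicate 1 were Ipo11 at 114 and 17.2 TPM, Nutf2, which returns Ran to the nucleus, at 87.2 and 26.9, and Cse1l, which returns import adaptors to the cytoplasm, at 142 and 61.3.

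Of 31 genes tied to nuclear condensation and enucleation, 25 were detected in both libraries, with 7 of 23 past 2-fold higher in each replicate. Kmt5a, the histone H4 methyltransferase, had 7.09 and 124 TPM, a centred difference of 3.93, larger than that of Trim10. Gmnn, an inhibitor of replication licensing, had 103 and 305 TPM, Cltc, the clathrin heavy chain, 29.8 and 98.3, and Icam4, a red cell adhesion protein, 45.2 and 100. Hdac1, a histone deacetylase, had 224 and 97.2 TPM. E2f4, a cell cycle factor needed in fetal red cell formation, had 213 and 158 TPM, and Vim, the intermediate filament lost from maturing red cells, 148 and 124.

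Of 16 FOXO targets and redox genes 6 were detected in both libraries, with 1 of 8 past 2-fold higher in replicate 2 and 3 in replicate 1. Gpx1, a glutathione peroxidase, had 3687 and 3039 TPM, and Sod1, the cytosolic superoxide dismutase, 825 and 1342. Cat, which encodes catalase, had 138 and 23.2 TPM, a centred difference of −2.54, and Fbxo32, a ubiquitin ligase subunit, was at 0 in both.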

How the data were processed

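RNA of 2 libraries of 1 group was analysed. Per the labels, the assembly was mm10, and release M4 of GENCODE was used for the tables. Which aligner and quantification program made them is not given in the sources used here. Per gene and per transcript, the authors deposited estimated counts (expected counts), TPM, FPKM, posterior mean TPM with 95% credibility bounds, and the percent of a gene's abundance given to each transcript. The deposited TPM values were used for levels. Of 69691 gene rows, 97 were spike-ins. Symbols, transcript types and coordinates came from GENCODE M21 by identifier, and 884 Ensembl rows had no match. Sequences came from the M21 transcripts.

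Detection was a TPM of at least 1. Differences were centred log2 ratios with a pseudocount of 1, at a mean TPM of at least 10. No p-value was computed. Some genes of the lists are not reported here. Values on the longest coding transcript are gene reads over its effective length, rescaled. The 10 genes and all lists were chosen with earlier results of these data known. Text names all 10 genes, their relatives and, per companion list, genes among the 5 highest, up to 5 at 0 in both libraries, and those past 2-fold at a mean TPM of at least 50. Alternatives changed the unit, pseudocount, centring, filter and transcripts counted. The 2-fold rule was run on simulated data that held counting error only, without the losses and amplification of such small RNA inputs. That run cannot tell how often unchanged genes pass the rule in these libraries. Python 3.11.15, numpy 2.4.6, pandas 2.3.3 and matplotlib 3.10.9 were used.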

Additional observations from a re-analysis of the deposited data

How the results depend on the processing

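Nothing here has a test, since 1 group of 2 libraries allows none. For Ulk1, Ube2o and Xpo7 the floor of 3 reads in the library without reads covers counting error only. The folds set against it are shares of reads and do not bound a difference in RNA. The percent of TPM held by the listed genes, 0.206, became 0.27 as a share of expected counts and 0.146 over protein-coding transcripts only, an alternative chosen after seeing the data. The count past 2-fold, 1, became 2 with no filter on low values (Trim10 and Xpo7) and 2 over protein-coding transcripts only (Bnip3l, at −1.29, and Trim10). The count of genes with the same leading transcript, 5 of 6 without the filter on the mean, became 3 by expected count. The other 36 alternatives of these summaries were counted as unchanged within set limits, though not all gave the same number. Companion genes detected in both libraries, 103, became 85 at a TPM of 5 and 109 at an expected count of at least 10. Listed genes detected in both became 6 at a TPM of 10. Genes above each relative became 4 by expected count, over coding transcripts alone and on the longest coding transcript. By 1 library alone, the listed genes detected ranged from 7 to 8, companion genes from 121 to 125, the percent of TPM from 0.19 to 0.223 and the genes above each relative from 5 to 6. Trim10 ranged from 2.57 to 3.02 over the settings run. Expected counts turned Tmcc2 to −0.15, the longest coding transcript to −0.12 and coding transcripts alone gave 0.79, and Gabarapl2 became 0.03 over coding transcripts. The cause of these shifts was not tested. No paired analysis was possible because there is 1 group.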
